A study of Mus musculus with 4 samples.

Results

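Reactive astrocytes are astrocytes that respond to injury, infection or inflammation, and they are recognised by genes that are low in the resting cell and rise when it reacts. The 10 genes described here, S100a10, Serpina3n, Cd44, Lcn2, Osmr, Cp, Timp1, Emp1, C3 and Serping1, were chosen by name as markers of this state, and all 10 had a row among the 29224 genes of the deposited tables. RNA was sequenced from astrocytes of the cerebral cortex at P5, in 2 Ezh2 f/f libraries and 2 Ezh2 cKO libraries. Both groups carried Ezh2 alleles flanked by loxP sites, and Ezh2 cKO mice carried in addition a Cre driven by Aldh1l1, an astrocyte gene, which deletes Ezh2, the enzyme that places the repressive histone mark H3K27me3, where it is active. The Ezh2 f/f mice served as controls. Cells were pulled from the tissue with beads against GLAST (ACSA-1), a glutamate transporter of astrocytes. The number of mice behind each library is not stated in the sources used here, so p-values measure the spread between these libraries, which may be technical. The study asked what Ezh2 does in the early growth of astrocytes, and the comparison below gives the level of each reactive marker in both groups.

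The markers fall into families with different tasks. Cytokines of the interleukin-6 family, among them oncostatin M, bind receptors that share the subunit gp130 and switch on the transcription factor STAT3, which is a main driver of the reactive state. The astrocyte then secretes acute phase proteins and protease inhibitors, changes its surface receptors for the extracellular matrix, and makes components of complement, the cascade that tags material for removal. In the usual grouping, Lcn2, Serpina3n, Cp, Timp1, Osmr and Cd44 rise after most kinds of insult, Emp1 and S100a10 are linked to ischaemia, and C3 and Serping1 to inflammation.

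The upstream sequences of these genes are shown because STAT3 and the inflammatory factors AP-1 and NF-kappaB act on such regions. RefSeq (GRCm38.p6) gave windows for 8 of the 10 genes, 10 windows in all, and the 250 bases before each start site were searched on both strands. The STAT core searched was TTCNNNGAA, the AP-1 site TGANTCA, and NF-kappaB its usual consensus. Among all 32851 windows, 7.02% held the STAT core, 6.75% the AP-1 site and 3.9% the NF-kappaB consensus, and of the 27025 genes with a window, 8.13%, 7.82% and 4.46% held them in at least 1 window. Of the 8 genes, 1 (Emp1) held the STAT core, 2 (Emp1 and Cp) the AP-1 site and 0 the NF-kappaB consensus. The windows of 3 genes that rose in Ezh2 cKO, Serpina3n, Cd44 and Osmr, are printed with 1 window of Emp1, which was not past the threshold. Capitals mark motif matches, and the first 3 windows hold none. In the printed Emp1 window the matches to the AP-1 site begin 145 and 25 bases before the start site. Those to the STAT core begin 120 and 22 bases before it, so that the pair nearest to the start overlaps. The other Emp1 window (chr6:135367243-135367492, plus strand), not printed, holds no match. No match says only that these letters are not in this window.
Serpina3n (chr12:104406458-104406707, plus strand): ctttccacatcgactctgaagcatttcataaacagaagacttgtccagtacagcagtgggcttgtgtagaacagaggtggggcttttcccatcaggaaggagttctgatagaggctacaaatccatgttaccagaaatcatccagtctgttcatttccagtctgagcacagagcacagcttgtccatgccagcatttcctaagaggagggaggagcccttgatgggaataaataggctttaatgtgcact
Cd44 (chr2:102901666-102901915, minus strand): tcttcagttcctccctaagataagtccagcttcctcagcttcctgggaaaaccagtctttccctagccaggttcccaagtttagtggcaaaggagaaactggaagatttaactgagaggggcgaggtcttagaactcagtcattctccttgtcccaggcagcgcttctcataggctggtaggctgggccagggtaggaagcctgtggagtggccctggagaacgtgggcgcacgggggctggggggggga
Osmr (chr15:6874314-6874563, minus strand): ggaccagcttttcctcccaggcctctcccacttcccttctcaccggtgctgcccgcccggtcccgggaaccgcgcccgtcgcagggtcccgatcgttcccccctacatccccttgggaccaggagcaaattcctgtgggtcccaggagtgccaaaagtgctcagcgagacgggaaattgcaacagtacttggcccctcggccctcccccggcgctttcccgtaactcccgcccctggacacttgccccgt
Emp1 (chr6:135362681-135362930, plus strand): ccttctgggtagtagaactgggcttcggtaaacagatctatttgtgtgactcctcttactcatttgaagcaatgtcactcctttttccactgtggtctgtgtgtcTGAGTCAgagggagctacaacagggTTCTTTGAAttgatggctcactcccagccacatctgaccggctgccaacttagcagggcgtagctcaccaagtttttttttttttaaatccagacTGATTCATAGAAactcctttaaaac

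The libraries held between 16273308 and 17522152 counts, and a count of 3, the limit that a count of 0 allows, corresponded to between 0.170 and 0.191 CPM (counts scaled to the normalised library size). Such limits cover counting error only. Ezh2, the targeted gene, had 434 and 327 counts in controls, and 211 and 164 remained in Ezh2 cKO (log2 fold change -1.11, adjusted p = 3.26e-05). The groups differed widely. Of 16793 genes with enough counts to be tested with edgeR, 68.4% had an adjusted p under 0.05, 34.7% as higher and 33.6% as lower in Ezh2 cKO, and in 84.3% the values of the groups did not overlap, with both Ezh2 cKO libraries above or below both controls.

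Against this background, 4 of the 9 markers that could be tested were higher in Ezh2 cKO and 0 were lower at an adjusted p under 0.05, which is 44.4% of those tested. At an unadjusted p under 0.05 the number was also 4. DESeq2 called 3 higher and 0 lower, beside 58.8% of all tested genes called in either direction. In 6 of the 9 the libraries of the groups did not overlap. Serpina3n, Cd44, S100a10 and Osmr were the higher genes, whereas Cp, Timp1, Emp1, C3 and Serping1 were not past the threshold, and Lcn2 had too few counts. In bulk RNA such as this, more or fewer cells of a type and more or less RNA per cell cannot be told apart. The median log2 fold change of the 9 was 0.47, beside 0.02 over all tested genes, whose middle 50% lay between -0.64 and 0.76. That median moved to 0.15 without control replicate 2 and to 0.16 and 0.30 when replicates 1 and 2 of Ezh2 cKO were dropped in turn, where Lcn2 also entered. It was 0.24 with no filter, 0.65 without control replicate 1, 0.72 for the 7 markers with a mean of at least 50 counts, and 0.73 and 1.47 with limma for the 5 markers it tested at pseudocounts of 1 and 0.1. Serpina3n and Cd44 had under 50 counts in both controls, and under the 1 FPKM (level per gene length) that limma required. They could thus enter the 50-count and limma medians only as rises, which adds to these medians.

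**Figure D1:**
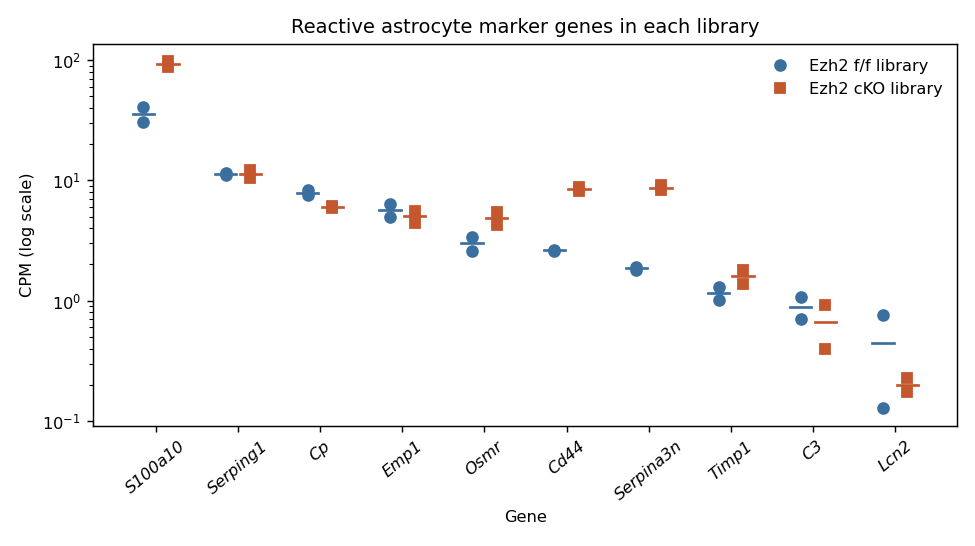
CPM of each marker gene (log axis) in the 2 Ezh2 f/f libraries (circles) and the 2 Ezh2 cKO libraries (squares), with the group mean as a line. S100a10, Cd44, Serpina3n, Osmr and Timp1 have both Ezh2 cKO libraries above both Ezh2 f/f libraries, Cp has both below, and the other 4 overlap.

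Among the secreted proteins, Serpina3n (ENSMUSG00000021091, chromosome 12) encodes an inhibitor of serine proteases and is among the most widely used markers of reactive astrocytes. It had 31 and 30 counts in the control libraries against 160 and 145 in the Ezh2 cKO libraries, or 1.82 and 1.91 against 9.08 and 8.37 CPM. Both Ezh2 cKO libraries thus lay well above both controls, and the libraries of a group lay close together. The level rose 4.67-fold (95% interval 3.32 to 6.58, adjusted p = 1.12e-06 in edgeR), and 5.03% of all tested genes rose more. Serpina3n sits in a cluster of closely related genes, so reads could be shared between copies. The relatives Serpina3f, Serpina3g and Serpina3i had at most 3 counts in each library. Serpina3c, Serpina3k and Serpina3m had no row by name, and the sharing of reads was not tested.

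Lcn2 (ENSMUSG00000026822, chromosome 2) encodes lipocalin-2, a secreted protein that binds iron carriers of bacteria. It had 13 and 2 counts in controls against 4 and 3 in Ezh2 cKO, and it did not pass the filter on low counts. A single control library, control replicate 1, held more counts than the other 3 libraries together, and the groups overlapped. Without the filter its log2 fold change was -1.15 (adjusted p = 0.355), and without control replicate 2, the library with 2 counts, it was -1.90 (adjusted p = 0.0521). Values without either Ezh2 cKO library were -1.35 and -0.97 (adjusted p = 0.393 and 0.511). Slc22a17, which encodes a receptor for lipocalin-2, was in contrast well counted and rose by a log2 fold change of 0.45 (adjusted p = 2.92e-04).

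Cp (ENSMUSG00000003617, chromosome 3) encodes ceruloplasmin, a copper protein that oxidises iron as it leaves the cell. Its counts were 128 and 131 in controls against 108 and 102 in Ezh2 cKO, or 7.49 and 8.34 against 6.13 and 5.89 CPM. Both Ezh2 cKO libraries lay below both controls, but the difference was not past the threshold (log2 fold change -0.40, 95% interval -0.80 to 0.01, adjusted p = 0.0762). Across the alternatives its adjusted p lay between 0.0656 and 0.208. Slc40a1, which encodes ferroportin, the channel through which that iron leaves, rose by 1.75 on the log2 scale (adjusted p = 8.21e-07). Cp overlaps Hps3 on the other strand, and the use of strand in counting is not given in the sources used here.

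Timp1 (ENSMUSG00000001131, chromosome X) encodes an inhibitor of matrix metalloproteinases. It had 22 and 16 counts in controls against 32 and 24 in Ezh2 cKO. The libraries did not overlap in CPM, which ran from 1.02 to 1.29 in Ezh2 f/f and from 1.39 to 1.82 in Ezh2 cKO, yet the interval of the fold ran from 0.797 to 2.39 (log2 fold change 0.47, adjusted p = 0.275). Timp1 lies within the span of Syn1, a neuronal gene on the other strand, which was at 177 and 215 CPM in controls and rose to 485 and 503 CPM in Ezh2 cKO. Whether reads of Syn1 entered the counts of Timp1 was not tested. Among the related inhibitors, Timp4 rose by 2.17 on the log2 scale (adjusted p = 3.61e-08), while Timp3 fell by 0.48 (adjusted p = 0.0029). Timp2 was at -0.22 (adjusted p = 0.0195), a call that was lost with limma at either pseudocount and without replicate 2 of either group (adjusted p between 0.0528 and 0.110). Of the enzymes, Mmp9 fell by 2.16 (adjusted p = 1.01e-06) and Mmp14 was at -0.25 (adjusted p = 0.0747), which passed the threshold with the replicate block (adjusted p = 0.0460) and without replicate 1 of the controls or of Ezh2 cKO (adjusted p = 0.0428 and 0.0114). Mmp2 was at -0.39 (adjusted p = 0.0351), a call that was lost in 6 of 11 alternatives (adjusted p up to 0.292, when Ezh2 cKO replicate 2 was dropped).

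**Figure D2:**
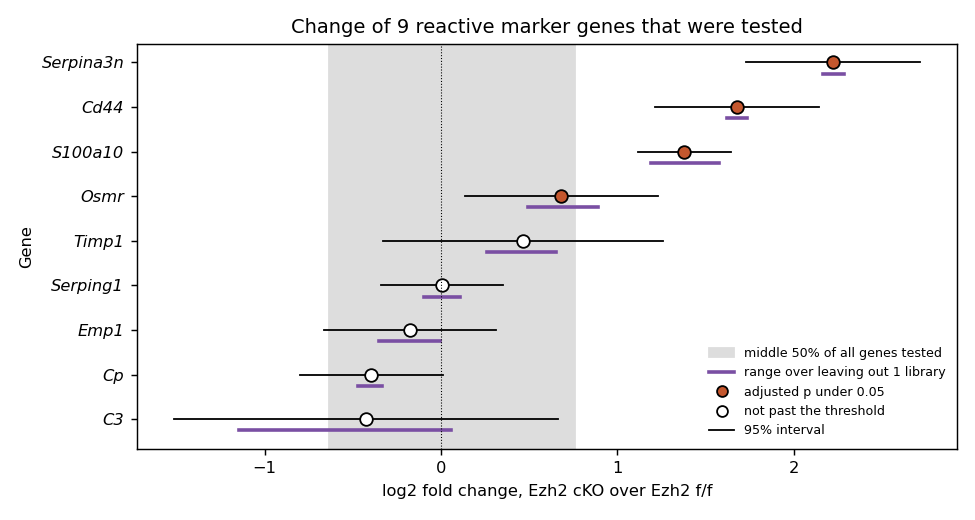
Log2 fold change of Ezh2 cKO over Ezh2 f/f for the 9 tested markers (points, filled where the adjusted p was under 0.05), with the 95% interval (black line), the range over leaving out 1 library (purple line) and the middle 50% of all tested genes (grey band). Serpina3n, Cd44 and S100a10 lie right of the band, and the intervals of Timp1, Serping1, Emp1, Cp and C3 cross 0.

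Among the surface proteins, Cd44 (ENSMUSG00000005087, chromosome 2) encodes the main receptor for hyaluronan, a sugar polymer of the extracellular matrix. It had 45 and 41 counts in controls against 154 and 140 in Ezh2 cKO, or 2.63 and 2.61 against 8.73 and 8.08 CPM. The groups were far apart in relation to the spread within them. The level rose 3.20-fold (95% interval 2.32 to 4.42, adjusted p = 1.01e-05), and 9.61% of tested genes rose more. Cd44 overlaps a gene named U6 on the other strand, and whether reads of U6 entered its counts was not tested.

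Osmr (ENSMUSG00000022146, chromosome 15) encodes the subunit that pairs with gp130 to form a receptor for oncostatin M. It had 58 and 41 counts in controls against 75 and 94 in Ezh2 cKO, or 3.40 and 2.61 against 4.25 and 5.43 CPM. The libraries did not overlap, but the gap between the highest control and the lowest Ezh2 cKO library was small. The level rose 1.61-fold (95% interval 1.10 to 2.35, adjusted p = 0.0281), and 27.0% of tested genes rose more. This call was lost with DESeq2 (adjusted p = 0.126), without control replicate 2 (log2 fold change 0.49, adjusted p = 0.121) and when Ezh2 cKO replicate 2 was dropped (0.50, adjusted p = 0.219), in a range of 0.00809 to 0.219 over the alternatives.

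S100a10 (ENSMUSG00000041959, chromosome 3) encodes p11, a member of the S100 family that joins annexin A2 at the plasma membrane. It was the most abundant marker, with 523 and 635 counts in controls against 1721 and 1511 in Ezh2 cKO, or 30.6 and 40.4 against 97.6 and 87.2 CPM. Both Ezh2 cKO libraries held more than 2 times the CPM of either control. The fold was 2.60 (95% interval 2.17 to 3.13, adjusted p = 2.55e-07), and 13.1% of tested genes rose more. Anxa2, the gene for its binding partner, had 659 and 594 counts in controls against 642 and 583 in Ezh2 cKO (log2 fold change -0.12, 95% interval -0.35 to 0.10, adjusted p = 0.300). Other genes of the S100 family also rose, by a log2 fold change of 4.92 for S100b, 2.63 for S100a1, 2.27 for S100a13, 2.25 for S100a16 and 1.17 for S100a6 (adjusted p at most 3.31e-05). S100a11 was at -0.44 (adjusted p = 0.0184), and when Ezh2 cKO replicate 2 was dropped the value was -0.28 and the call was lost (adjusted p = 0.198).

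Emp1 (ENSMUSG00000030208, chromosome 6) encodes a membrane protein of the PMP22 family. It had 85 and 100 counts in controls against 78 and 97 in Ezh2 cKO, or 4.98 and 6.36 against 4.42 and 5.60 CPM. The groups overlapped, and the fold was 0.885 (95% interval 0.631 to 1.24, adjusted p = 0.507). Its relatives Emp2 and Emp3 rose by log2 fold changes of 1.44 (adjusted p = 1.33e-08) and 0.76 (adjusted p = 0.00533), although the call of Emp3 was lost when Ezh2 cKO replicate 1 was dropped (0.60, adjusted p = 0.0784). Pmp22 was at -0.06 (adjusted p = 0.737), a value whose sign changed with limma and without Ezh2 cKO replicate 1.

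The complement markers were not past the threshold. C3 (ENSMUSG00000024164, chromosome 17), the protein on which all routes of complement activation meet, had 12 and 17 counts in controls against 7 and 16 in Ezh2 cKO, or 0.703 and 1.08 against 0.397 and 0.923 CPM. The groups overlapped, and with so few reads the interval of the fold was wide, from 0.350 to 1.58 (log2 fold change -0.43, adjusted p = 0.470). Without Ezh2 cKO replicate 1 the sign turned (0.06), and without Ezh2 cKO replicate 2 the value was -1.14. Serping1 (ENSMUSG00000023224, chromosome 2), the inhibitor of the first complement proteases, had 196 and 175 counts in controls against 214 and 183 in Ezh2 cKO, or 11.5 and 11.1 against 12.1 and 10.6 CPM. The 4 libraries were interleaved, and the 95% interval of the fold was 0.790 to 1.28 (adjusted p = 0.979).

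Levels of different genes are compared in FPKM, which are per length. In Ezh2 f/f the order of the means was S100a10 (28.4 ± 5.35), Serping1 (4.72 ± 0.131), Timp1 (1.26 ± 0.217), Emp1 (0.926 ± 0.154), Serpina3n (0.875 ± 0.0255), Cp (0.803 ± 0.0551), Cd44 (0.375 ± 0.00508), Osmr (0.241 ± 0.0462), C3 (0.168 ± 0.0495) and Lcn2 (0.165 ± 0.167; SD, n = 2 libraries each). The libraries of Emp1 and Serpina3n overlapped, as did those of C3 and Lcn2. In Ezh2 cKO, Serpina3n moved from place 5 to place 3 with 4.34 ± 0.184 FPKM, and Cd44 from place 7 to place 5 with 1.28 ± 0.0513 FPKM. S100a10 reached 78.3 ± 5.08 FPKM and rank 662 of all 29224 genes, from rank 2039 in Ezh2 f/f. S100a10, Serping1 and Timp1 had a mean above 1 FPKM in both groups. Serpina3n and Cd44, already given as higher, passed that level in Ezh2 cKO alone. In CPM, which are not scaled to gene length, the markers were also summed, so that longer genes weigh more than in FPKM. S100a10 took between 47.0% and 53.5% of that sum in Ezh2 f/f and between 65.3% and 67.4% in Ezh2 cKO. Without S100a10, the sum was 34.5 and 35.2 CPM in controls and reached 47.2 and 46.4 in Ezh2 cKO. Within that sum, mean CPM went from 1.86 to 8.72 for Serpina3n and from 2.62 to 8.41 for Cd44. The means of Osmr, Timp1 and Serping1 were also higher in Ezh2 cKO, and those of Cp, Emp1, C3 and Lcn2 lower.

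**Figure D3:**
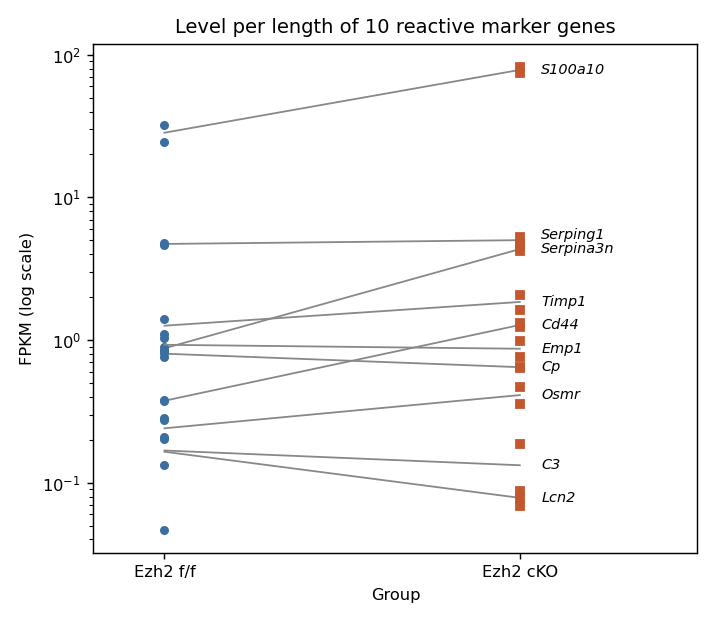
FPKM of the 10 markers (log axis) in the libraries of each group, with lines between the group means. S100a10 is the highest in both groups, Serpina3n and Cd44 move up in the order, and C3 and Lcn2 stay lowest.

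Further genes of the reactive state were examined as a list of 28, of which 22 were tested. Of these, 8 were higher and 8 lower in Ezh2 cKO, beside 34.7% and 33.6% of all tested genes. The median log2 fold change was 0.14. Gfap, the intermediate filament gene that is the classical marker of astrocyte reactivity and also rises as astrocytes mature, went from 39.9 ± 2.00 to 544 ± 81.8 CPM (SD of 2 libraries each; log2 fold change 3.77, adjusted p = 2.51e-11). Cd14 (2.30), a receptor for bacterial lipopolysaccharide, Gbp2 (1.13), an interferon-induced GTPase, and Tm4sf1 (1.12) were the next higher genes. The call of Gbp2 (adjusted p = 0.0269) was lost with DESeq2 (adjusted p = 0.154), without control replicate 1 (log2 fold change 0.72, adjusted p = 0.203) and without either Ezh2 cKO library (adjusted p = 0.198 and 0.0859), and its value without control replicate 2 was 1.65. Tgm1 (-3.91), a transglutaminase, B3gnt5 (-1.55), Fkbp5 (-1.42), a target of glucocorticoids, and Vim (-1.04), another intermediate filament gene of reactive astrocytes, were the lowest. Tgm1 passed the filter on low counts through the controls alone, and Gbp2 needed an Ezh2 cKO library to pass it. The number of higher genes was 5 with DESeq2, 5 without control replicate 1 and 4 when Ezh2 cKO replicate 1 was dropped.

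In the gp130 and STAT3 pathway, through which Osmr acts, 14 of 18 listed genes were tested, with a median log2 fold change of -0.44. In Ezh2 cKO 3 were higher and 6 lower, beside 34.7% and 33.6% of all tested genes. The ligand genes Osm, Lif, Il6 and Cntf had at most 5 counts in each library. Il6st, which encodes gp130, the partner of Osmr, rose by 0.55 (adjusted p = 1.16e-04), as did Jak1, a kinase bound to these receptors (0.72), and Ctf1, a ligand (1.42). Ctf1 had 10 and 14 counts in controls and needed an Ezh2 cKO library to pass the filter on low counts. The call of Ctf1 was lost with DESeq2 (adjusted p = 0.0523) and when Ezh2 cKO replicate 2 was dropped (adjusted p = 0.0630). Stat3 itself was at -0.37 (adjusted p = 0.00435), a call that was lost with limma at either pseudocount (adjusted p = 0.0683 and 0.0657) and when Ezh2 cKO replicate 2 was dropped (adjusted p = 0.0697). Socs3, the feedback inhibitor that STAT3 induces, fell from 13.4 ± 1.71 to 3.80 ± 0.641 CPM (SD, n = 2 each; log2 fold change -1.82, adjusted p = 1.92e-06). Pias3 (-0.94), an inhibitor of STAT3, and Ptpn11 (-0.69) and Jak2 (-0.59), which encode signalling enzymes of the pathway, were also lower. Without control replicate 2 the number of higher genes was 5.

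Around C3 and Serping1, 16 of 23 listed complement genes were tested, with a median log2 fold change of 0.97. In Ezh2 cKO 9 were higher and 2 lower, beside 34.7% and 33.6% of all tested genes. C4b, which feeds the step that cleaves C3, had 32 and 47 counts in controls against 309 and 224 in Ezh2 cKO (log2 fold change 2.65, adjusted p = 3.12e-07). Cd55, which shields cells by breaking up the enzymes that cleave C3, rose by 2.10 (adjusted p = 1.28e-05). C7 had 1 and 2 counts in controls against 13 in each Ezh2 cKO library, and C5ar1, a receptor of myeloid cells, 2 and 1 against 16 and 21. C1s1 had 6 and 5 counts in controls against 31 and 13 in Ezh2 cKO. C7, C5ar1 and C1s1 passed the filter on low counts through Ezh2 cKO alone. They could thus be tested only as rises, which adds to the number higher and to the median. C1ra, also higher, had 9 and 12 counts in controls against 33 and 18, and needed an Ezh2 cKO library to pass. Cfp (-1.06), a stabiliser of the C3-cleaving enzyme, and Masp1 (-1.02), a protease of the lectin route, were lower. C3ar1, the receptor for a fragment of C3, was at 0.51 (95% interval -0.24 to 1.26, adjusted p = 0.208). The number of higher genes was 4 with limma, where 7 of the genes were tested. The genes named beside each marker come from 32 family and partner genes, of which 25 were tested. Of these, 13 were higher and 5 lower, beside the same shares of all tested genes, with a median of 0.45. Without Ezh2 cKO replicate 2 there were 2 lower.

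**Figure D4:**
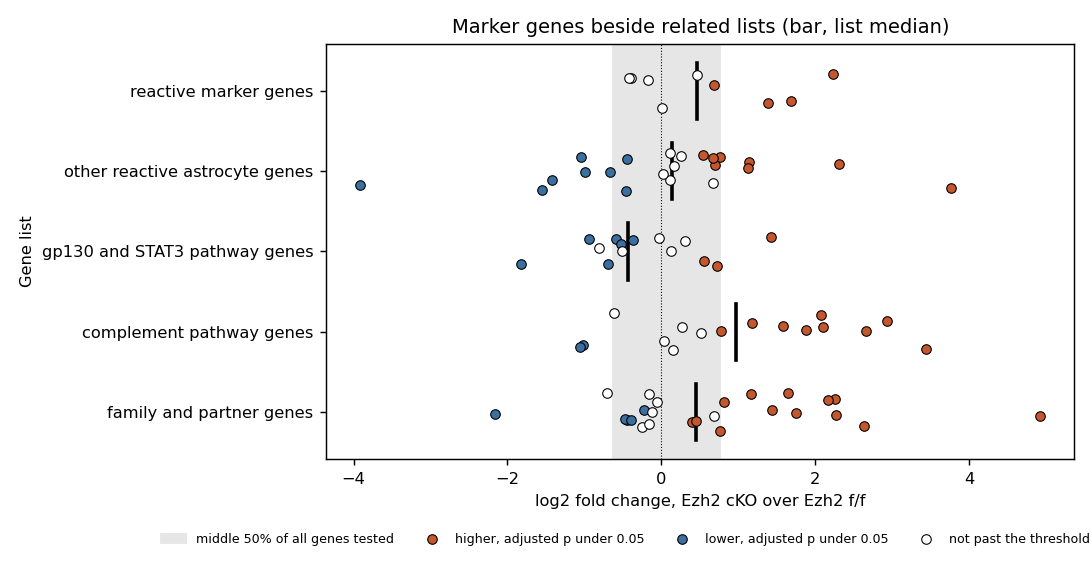
Log2 fold change of each tested gene in the markers and in 4 related lists (points, coloured where the adjusted p was under 0.05, spread vertically for visibility), with list medians (bars) and the middle 50% of all tested genes (grey band). The complement list has the highest median (0.97) and the gp130 and STAT3 list the lowest (-0.44). C7, C5ar1 and C1s1 of the complement list passed the filter on low counts through Ezh2 cKO alone.

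Markers of cell types were also compared between the groups, beside 34.7% higher and 33.6% lower over all tested genes. Of 10 astrocyte markers, 8 were higher and 0 lower in Ezh2 cKO, and their summed level was 488 to 502 CPM in Ezh2 f/f and 2537 to 2783 CPM in Ezh2 cKO, with a median log2 fold change of 1.69. Gfap belongs to that list, as do Aldh1l1 (-0.15) and Sox9 (-0.06), which were not past the threshold. Microglia markers, 10 higher and 0 lower of 10, summed to 112 to 114 CPM in Ezh2 f/f and 319 to 375 CPM in Ezh2 cKO. Oligodendrocyte markers were higher for 8 of 8 tested (85.8 to 97.6 against 753 to 876 CPM), as were oligodendrocyte precursor markers for 8 of 8 (187 in both controls against 434 to 486 CPM). Neuronal markers were by far the most abundant, with 6514 to 6743 CPM in Ezh2 f/f and 7995 to 8029 CPM in Ezh2 cKO, 7 higher and 2 lower of 10. Tubb3, 1 of the 2 lower genes, made up 3563 and 3671 CPM of these sums in the controls. In Ezh2 cKO it made up 2245 and 2171 CPM, so the sums do not show the change of the other neuronal markers. The ependymal and choroid plexus list summed to 400.0 and 789.8 CPM in the controls and 22.3 and 18.2 CPM in Ezh2 cKO, with 3 higher and 4 lower of 8 tested. A single gene, Ttr, which encodes transthyretin and is abundant in choroid plexus, made up 370.4 and 738.1 CPM of these sums in the controls and 0.284 and 0.693 CPM in Ezh2 cKO, and without it the list summed to 29.6 and 51.7 CPM in the controls and 22.0 and 17.5 CPM in Ezh2 cKO. Endothelial markers (3 higher and 1 lower of 10), mural and fibroblast markers (4 and 2 of 10) and erythrocyte markers (3 and 0 of 5) summed to 309 to 325, 410.2 to 429.7 and 373 to 452 CPM in Ezh2 f/f and to 355 to 409, 499 to 559 and 464 to 469 CPM in Ezh2 cKO. Macrophage and neutrophil markers (1 and 2 of 6 tested) stayed between 20.2 and 22.1 CPM in the 4 libraries, with Ly6g at no more than 1 count, and Kcnj13 of the choroid plexus list had no more than 3. No list had a marker at 0 in all libraries. Mobp, Neu4 and Kl passed the filter on low counts through Ezh2 cKO alone and could be tested only as rises. Folr1 and Ngp passed it through the controls alone and could be tested only as falls. P2ry12 and Aif1 of the microglia list needed an Ezh2 cKO library to pass. The numbers higher and lower in these lists carry that limit. The part of these cell types in the changes of the reactive markers was not tested.

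**Figure D5:**
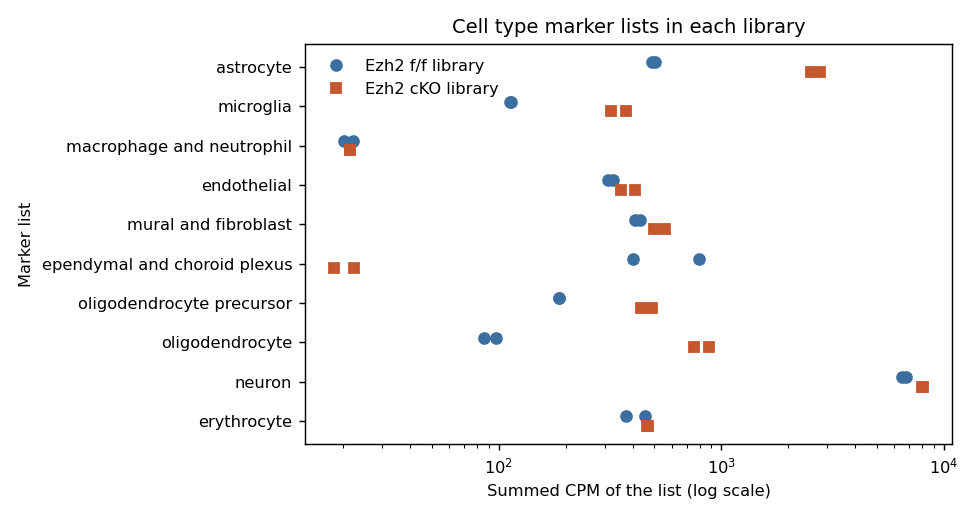
Summed CPM (log axis) of each cell type marker list in the 2 Ezh2 f/f libraries (circles) and the 2 Ezh2 cKO libraries (squares). Both Ezh2 cKO libraries lie above both controls in 8 of the 10 lists, the ependymal and choroid plexus list lies below, and the macrophage and neutrophil list overlaps.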

How the data were processed

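RNA was sequenced in 4 libraries, 2 per group, and the authors deposited read counts per gene without normalisation and FPKM, which the authors scaled to gene length and library size. The submitters' notes name Bowtie2 2.2.3, TopHat2 2.0.12, HTSeq 0.6.0 and the build mm9, without their roles; use of strand is not given in the sources used here. Gene positions in the tables differ from GRCm38 for all 10 markers, their build could not be settled, and chromosomes alone are given; promoter coordinates are from RefSeq on GRCm38.p6. The deposited table also holds the authors' own comparison (fold change, p-values), which was not used.

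Counts were filtered with filterByExpr (16793 of 29224 genes kept), normalised by TMM and fitted with edgeR 4.0.16 (quasi-likelihood test, group as the only term) in R 4.3.3, with Benjamini-Hochberg adjustment over all tested genes and a threshold of 0.05. Standard errors are the log2 fold change over the root of F, and 95% intervals use the total degrees of freedom. The 2 libraries within each group were not copies of each other (chi-square per degree of freedom 8.92 for controls, 5.68 for Ezh2 cKO). With 2 libraries against 2, no permutation test can reach 0.05. The alternatives were DESeq2 1.42.0, its size factors, no filter, a mean of at least 50 counts, limma 3.58.1 on log2(FPKM + 1) or log2(FPKM + 0.1) for genes reaching 1 FPKM in 2 or more libraries, a block for the replicate number, and dropping each library. The scripts were tested on simulated data, in which limma called more unchanged genes than the threshold allows. The markers and lists were chosen with earlier results of these data known. Besides the markers, up to 4 highest and 4 lowest called genes of each list and partners set by name are given. Other genes were chosen after their values were seen. These were Aldh1l1, Sox9, Ly6g, Kcnj13, Ttr and Tubb3 among the cell markers, and S100a6, Timp2, Timp4 and Mmp14 among relatives. So were the cell markers named for how they passed the filter on low counts. C1s1, C1ra, the ligand genes at low counts, Syn1 and Hps3 were also chosen in this way. Symbols without a row in the tables (8 of those listed) were not analysed here. Figures were drawn with matplotlib 3.10.9.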

Additional observations from a re-analysis of the deposited data

How the results depend on the processing

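The markers higher in Ezh2 cKO numbered 3 or 4 and the lower ones 0 under each alternative run, and Serpina3n, Cd44 and S100a10 were higher with an adjusted p under 0.05 in all 11. Osmr lost its call in 3 of the 9 alternatives that tested it, and Gbp2, Ctf1, Mmp2, Timp2, S100a11, Stat3 and Emp3 lost theirs in 1 or more, as given above. Of the values that were not past the threshold, that of Serping1 turned to -0.0105 with DESeq2 and -0.0106 with its size factors in edgeR and lay between -0.10 and 0.11 when each library was left out, that of C3 between -1.14 and 0.0568, and that of Pmp22 between -0.12 and 0.0077, or at 0.0233 and 0.026 with limma (pseudocounts 1 and 0.1). Among list counts, the further reactive genes higher in Ezh2 cKO numbered 8, but 5 with DESeq2 and between 4 and 8 with 1 library left out; the gp130 and STAT3 genes higher numbered 3, but 2 with DESeq2 and with at least 50 counts on average, and between 3 and 5 with 1 library left out; the complement genes higher numbered 9, but 5 with at least 50 counts on average and 4 with limma at either pseudocount, where fewer genes were tested; and the family and partner genes lower numbered 5, but 3 with limma at either pseudocount and between 2 and 7 with 1 library left out. For the leave-out changes the cause was not tested. With limma, and with at least 50 counts on average, Serpina3n and Cd44 passed the filter only through their Ezh2 cKO values. Under those settings they could be tested only as rises.

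The replicate numbers of the labels may not pair libraries, since nothing states a shared litter or day; deviations of same-numbered libraries correlated across genes with r = 0.13. With the replicate number as a block, 4 markers were higher and 0 lower, Osmr was at 0.68 (adjusted p = 0.0217), and over all genes 5795 were higher and 5599 lower in place of 5831 and 5650. Counts limit Lcn2, C3 and Timp1, each with at most 32 counts in a library.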
